A study of Mus musculus with 8 samples.

Results

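Checkpoint molecules of the B7 and CD28 families, with CD200 and TIM-3, were followed as a set of 10 genes in splenic dendritic cells (DCs) that lacked Lkb1 or came from LPS-treated mice. The set was made of *Cd80*, *Cd86*, *Cd274*, *Pdcd1lg2*, *Icosl*, *Cd276*, *Cd200*, *Pdcd1*, *Ctla4* and *Havcr2*, chosen by gene symbol from the 22180 genes that have a probe set of their own on the array. Each of the 10 was read by 1 probe set, out of 41345 in all. Splenic DCs of 8-week-old C57BL/6 mice were profiled on 8 Affymetrix Mouse Gene 2.0 ST arrays. The Lkb1-deficient group (3 arrays, labelled KO) came from Cd11cCreLkb1f/f mice, and the WT group (3 arrays) from Lkb1f/f mice, which carry the same floxed alleles without Cre. Cre was driven by the *Cd11c* promoter, which is also used by some macrophages, so deletion need not be limited to DCs. The other arrays were 1 from mice given LPS overnight and 1 Control array, both labelled wild type, although a legend of the study gives the LPS-treated mice as Lkb1f/f, and no dose is stated for the arrays. That legend gives an n for the mice of the Lkb1-deficient and LPS groups without saying whether each array held DCs of a single mouse, and nothing in the labels or methods says so for WT, so the p-values below measure only the spread between these samples, which may be partly technical.

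T cells are activated when antigen on a DC is read together with signals from molecules of the B7 family on the DC surface. CD80 and CD86 bind CD28, which stimulates, and CTLA-4, which inhibits, while PD-L1 (*Cd274*) and PD-L2 (*Pdcd1lg2*) bind the inhibitory receptor PD-1 (*Pdcd1*). Mature DCs are known for high CD80 and CD86, and PD-L1 is induced in many cells by interferon. Receptors such as PD-1 and CTLA-4 are best known from T cells, but DCs can also express them. In mice, *Cd200* encodes a surface glycoprotein that restrains myeloid cells through CD200R, and *Havcr2* encodes TIM-3, an inhibitory receptor found on DCs.

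*Cd200* and *Pdcd1* had the highest positive differences of the 10 genes in both comparisons as deposited (with 16 added to the linear signal, *Cd80* at 1.82 passed *Pdcd1* at 1.72 for LPS), so the 250 bases before the RefSeq start site of each are shown (GRCm38.p6, both genes on the minus strand, written 5′ to 3′). They lie at chr16:45409054-45409303 for *Cd200* and at chr1:94052554-94052803 for *Pdcd1*. The capitals mark the one match found, the cAMP response element short form TGACG, which here reads CGTCA because it lies on the opposite strand.

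Cd200: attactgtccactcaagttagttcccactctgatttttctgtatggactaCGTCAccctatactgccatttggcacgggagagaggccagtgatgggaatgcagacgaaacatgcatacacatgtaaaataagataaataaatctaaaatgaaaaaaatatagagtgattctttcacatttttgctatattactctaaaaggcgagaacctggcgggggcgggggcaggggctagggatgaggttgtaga

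Pdcd1: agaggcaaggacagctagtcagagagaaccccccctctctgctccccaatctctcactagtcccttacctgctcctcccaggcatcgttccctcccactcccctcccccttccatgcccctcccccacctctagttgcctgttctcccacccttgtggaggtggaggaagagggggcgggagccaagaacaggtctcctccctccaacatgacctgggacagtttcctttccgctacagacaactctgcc

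Both strands of these windows were searched for the interferon-stimulated response element core (GAAANNGAAA), the gamma-activated site (TTCNNNGAA), a κB motif (GGGNNTTTCC), the full cAMP response element (TGACGTCA) and its short form (TGACG), which the full form contains. RefSeq windows were found for 9 of the 10 genes, all except *Cd86*. Those of *Cd80* and *Cd274* lie inside the annotated gene, and that of *Cd200* overlaps its first bases. Other start sites were not searched. The *Cd200* match, at positions −200 to −196 before the start, was the 1 match in the 9 windows. Over 32851 promoter windows of the same length, the short form occurred in 17.8%, the gamma-activated site in 7.02%, the interferon core in 2.98%, the full cAMP element in 1.55% and the κB motif in 1.41%. A match of letters is a description of the window and does not locate a bound factor. *Cd274* and *Pdcd1lg2* are neighbours on chromosome 19, with 0 annotated genes starting between them.

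Values are log2 signals as deposited, so a difference of 1.00 is a doubling. The median over all probe sets of replicates 1, 2 and 3 was 4.59, 4.07 and 3.35 for Lkb1-deficient DCs and 4.64, 4.09 and 3.40 for WT DCs, and it was 4.14 on both the LPS and the Control array. Arrays of replicate 3 were therefore the lowest in both genotypes. *Stk11*, which encodes Lkb1, had 6.67, 6.41 and 5.55 in Lkb1-deficient DCs and 6.73, 6.83 and 5.96 in WT DCs. It lay lower in all 3 pairs, with overlapping groups and no call (limma adjusted p = 1, and adjusted p = 0.458 with the replicate number as a block), but which exons its probe set reads is not given in the sources used here. LPS and Control arrays both listed it at 7.10, which is among the equal values counted below. The DC markers *Itgax* and *H2-Ab1* averaged 9.83 and 12.22 in Lkb1-deficient DCs and 9.76 and 12.31 in WT DCs. Of 14 DC markers measured, 0 passed limma's test between the genotypes, with or without the block. At an unadjusted p under 0.05 with the block 1 was higher and 1 lower, beside 5.21% and 6.22% of all probe sets. In the pairs 4 were higher throughout and 6 lower throughout, beside 13.3% and 16.9%. The lowest mean difference was that of *Clec4a4*, a lectin receptor of CD8-negative DCs (−0.99, −1.27 and −0.57, adjusted p = 0.149 with the block). The LPS and Control arrays held values equal to the last digit for 54.2% of 33649 shared probe sets, and same-numbered Lkb1-deficient and WT arrays for 2.95% to 8.28%. None of the 10 genes was among these equal values (0 in each pair).

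*Cd200* showed the largest difference between Lkb1-deficient and WT DCs among the 10 genes. Its signal was 8.29, 7.74 and 6.58 in Lkb1-deficient DCs, against 6.10, 5.76 and 4.98 in WT DCs (replicates 1, 2 and 3). Each Lkb1-deficient array lay above each WT array, and replicate 3 was lowest in both genotypes. The pairs differed by 2.19, 1.98 and 1.59, with a mean of 1.92 (3.79-fold). Limma without a block gave a standard error of 0.63, the same for every probe set, with adjusted p = 1. With the replicate number as a block, the same difference had a standard error of 0.14, a 95% interval of 1.55 to 2.29 and adjusted p = 0.0334. *Cd200* was the 1 gene of the 10 that this fit called, and 0.206% of all probe sets were called higher by it. That call was lost when 16 was added to the linear signal (adjusted p = 0.0933) or when any pair was left out (adjusted p = 0.219 to 0.556). With any pair left out the blocked fit called 0 of all probe sets, and the *Cd200* difference was 1.79 to 2.08. After each array's own median was subtracted, *Cd200* had 3.69, 3.66 and 3.23 in Lkb1-deficient DCs and 1.46, 1.67 and 1.58 in WT DCs, and it was the 1 gene of the 10 whose groups were still apart.

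*Pdcd1*, the gene of PD-1, was the second. It had 4.83, 5.01 and 4.81 in Lkb1-deficient DCs and 3.77, 4.18 and 3.65 in WT DCs. Each Lkb1-deficient array lay above each WT array, and replicate 2 was the highest in both genotypes. The pairs differed by 1.07, 0.83 and 1.16 (mean 1.02, block 95% interval 0.73 to 1.31). It was not called in either fit (adjusted p = 1 without the block and 0.0747 with it). The signal was dim among the 33649 probe sets with values on all 8 arrays. WT values stood at percentiles 34.9 to 55.4 of these, and Lkb1-deficient values at percentiles 55.8 to 69.8. With array medians subtracted the groups overlapped, since the lowest Lkb1-deficient array then had 0.24 and the highest WT array 0.25.

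*Ctla4*, whose product competes with CD28 for CD80 and CD86, was also dim. Its values were 4.65, 4.95 and 4.82 in Lkb1-deficient DCs against 4.18, 4.01 and 4.11 in WT DCs. The groups did not overlap as deposited, but they did once array medians were subtracted. The mean difference was 0.71, with 0.48, 0.94 and 0.71 in the pairs and a block interval of 0.39 to 1.03, and it was not called (adjusted p = 1, and 0.166 with the block). With *Cd200* and *Pdcd1* it made 3 of 10 genes whose Lkb1-deficient arrays all lay above the WT arrays, beside 0.38% of all probe sets. With 3 arrays in each group, the smallest p of an exact two-sided permutation test is 0.1.

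Both receptors are also T cell genes, and T cell markers were read on the same arrays. Their mean signal over 14 markers was 5.17 to 6.17 on the Lkb1-deficient arrays and 5.11 to 5.81 on the WT arrays. *Cd3e*, a subunit of the T cell receptor complex, differed by 0.64, −0.49 and 0.13 in the pairs. Of the 14 markers, 3 were higher in all 3 pairs and 0 were lower in all 3, beside 13.3% and 16.9% of all probe sets. In either limma fit 0 passed. At an unadjusted p under 0.05 with the block, 2 were higher and 0 lower, beside 5.21% and 6.22%. The 3 higher in all pairs were *Icos* (0.13, 0.08 and 0.02), *Foxp3* (0.44, 0.56 and 0.64) and *Il2ra* (2.16, 1.52 and 1.31), named after their values were seen. *Foxp3* defines regulatory T cells, and *Il2ra*, which encodes CD25, is also expressed by activated DCs. The part of T cells in the *Pdcd1* and *Ctla4* values was not tested. Over all 7 lists of cell type markers, 1 gene passed the blocked fit, *Cox6a2* of the plasmacytoid DC list (1.83, 1.86 and 1.38 in the pairs, adjusted p = 0.0334). Of 8 plasmacytoid DC markers, 4 were higher in all pairs and 0 lower (median 0.21), and of 8 NK cell markers 0 were higher in all pairs and 3 lower (median −0.43). B cell markers had a median of −0.35, with 0 of 11 higher in all pairs and 1 lower. Of 13 macrophage and monocyte markers, 2 were higher in all pairs and 5 lower (median −0.16), among them *Adgre1*, which encodes F4/80 (mean −0.86, adjusted p = 0.0883 with the block). The part of these cells in the checkpoint values was not tested. In bulk samples, more cells of a type and more RNA per cell cannot be told apart.

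**Figure D1:**
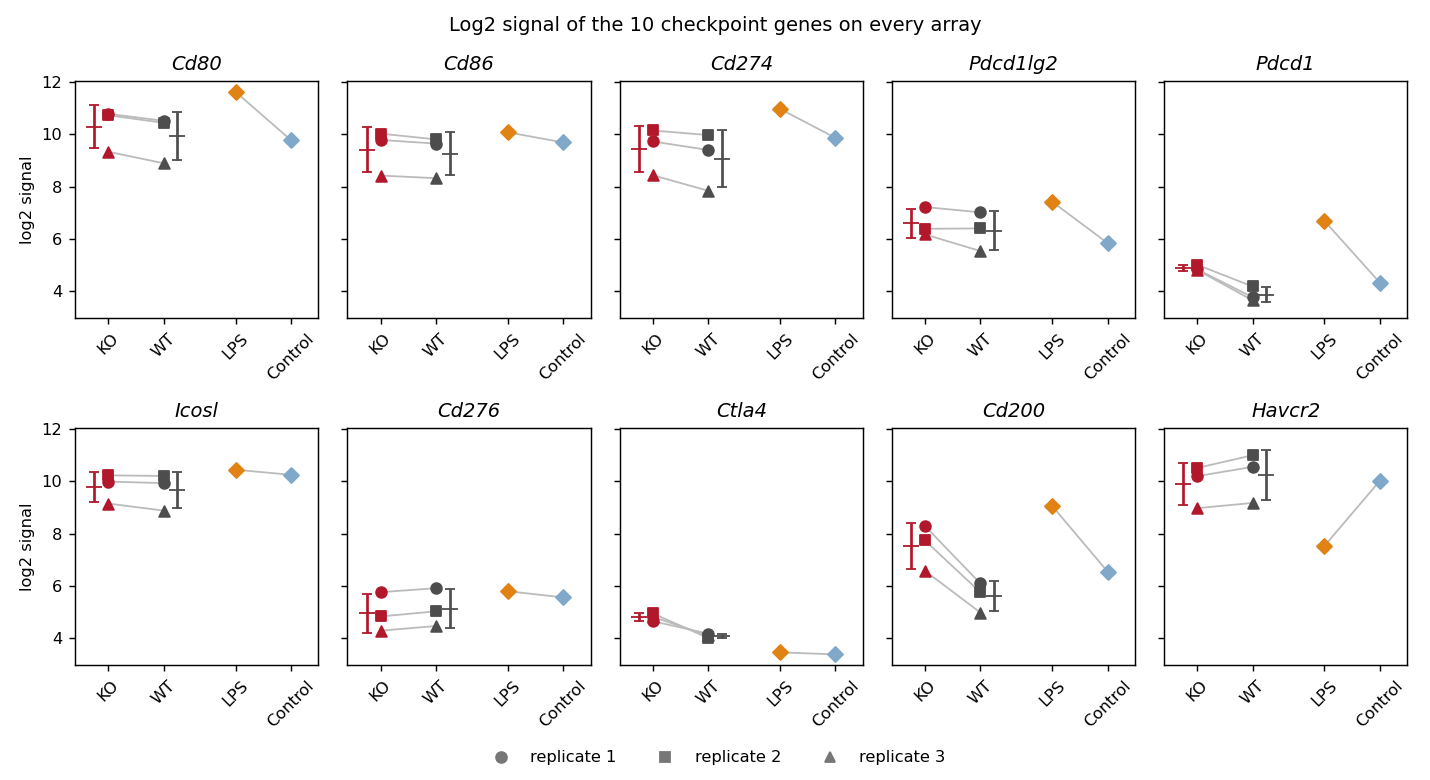
Deposited log2 signal (y axis) of each of the 10 genes on every array, with KO standing for Lkb1-deficient DCs; grey lines join arrays of the same replicate number or the LPS and Control arrays, and the bars beside the points show mean ± SD (n = 3). *Cd200*, *Pdcd1* and *Ctla4* have all KO arrays above all WT arrays, and in most other panels replicate 3 is the lowest point of both groups.

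The classical costimulators *Cd80*, *Cd86* and *Icosl* had mean differences between genotypes of 0.33, 0.15 and 0.12. *Cd80* had 10.78, 10.72 and 9.33 in Lkb1-deficient DCs and 10.51, 10.43 and 8.89 in WT DCs. Each pair was higher without Lkb1, by 0.26, 0.29 and 0.44 (block interval 0.07 to 0.59, above 0), and the groups overlapped, with replicate 3 low in both. *Cd86* had 9.78, 10.02 and 8.42 in Lkb1-deficient DCs and 9.64, 9.80 and 8.32 in WT DCs. Its pairs differed by 0.14, 0.22 and 0.10, within a block interval of −0.10 to 0.40. *Icosl*, the ligand of ICOS, had 9.99, 10.23 and 9.15 in Lkb1-deficient DCs and 9.93, 10.20 and 8.88 in WT DCs. The block interval was −0.16 to 0.39. None of these 3 ligands was called (adjusted p = 1 without the block, and 0.345, 0.624 and 0.740 with it for *Cd80*, *Cd86* and *Icosl* in that order).

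Neither PD-1 ligand was called between the genotypes. *Cd274* (PD-L1) had 9.72, 10.14 and 8.43 in Lkb1-deficient DCs and 9.40, 9.97 and 7.84 in WT DCs. All pairs were higher without Lkb1, by 0.32, 0.17 and 0.59 (mean 0.36, block interval 0.05 to 0.67, adjusted p = 0.378 with the block). *Pdcd1lg2* (PD-L2) had 7.22, 6.38 and 6.17 in Lkb1-deficient DCs and 7.01, 6.40 and 5.53 in WT DCs. Its pairs did not share a direction, with differences of 0.20, −0.02 and 0.63, and it was the 1 gene of the 10 of which this held (block adjusted p = 0.576).

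Lower values without Lkb1 were seen for *Havcr2* and *Cd276*. *Havcr2* had 10.20, 10.51 and 8.97 in Lkb1-deficient DCs and 10.55, 10.99 and 9.17 in WT DCs. It was lower in each pair, by 0.35, 0.48 and 0.20 on the log2 scale, with overlapping groups and a block interval of −0.62 to −0.07 (adjusted p = 0.348). *Cd276* (B7-H3, a B7 family member whose receptor is not settled) had 5.76, 4.83 and 4.29 in Lkb1-deficient DCs and 5.91, 5.03 and 4.47 in WT DCs. Its pair differences of −0.15, −0.20 and −0.18 were close to one another, and the block interval, −0.42 to 0.07, took in 0.

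Counted over the set, 7 of 10 genes were higher in all 3 pairs and 2 were lower in all 3, beside 13.3% and 16.9% of all probe sets. The median difference of the 10 was 0.30, against −0.02 over all probe sets and −0.01 over all genes. Without the block, limma called 0 of the 10 at an adjusted p under 0.05 and 0.00967% of all probe sets. At an unadjusted p under 0.05 that fit had *Cd200* alone, 1 of 10, beside 0.3% of probe sets that were higher. With the block, 5 of 10 were higher at an unadjusted p under 0.05 (*Cd80*, *Cd274*, *Pdcd1*, *Ctla4* and *Cd200*), beside 5.21% of probe sets, and 1 was lower (*Havcr2*), beside 6.22%. The methods' t-test had 3 of 10 higher before adjustment, *Cd200*, *Pdcd1* and *Ctla4*, beside 0.193% of probe sets, and 0 after it.

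**Figure D2:**
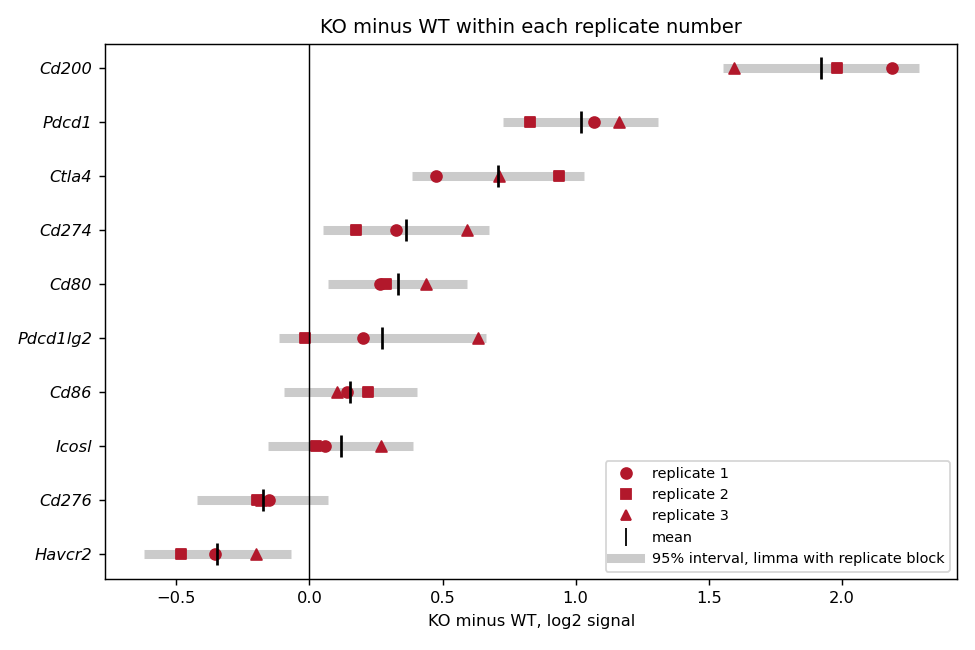
KO minus WT log2 signal (x axis, KO standing for Lkb1-deficient DCs) of each gene within replicates 1, 2 and 3 (circle, square, triangle), with the mean (tick) and the 95% interval of the blocked limma fit (grey bar). The intervals of *Cd200* (1.55 to 2.29), *Pdcd1* and *Ctla4* lie farthest above 0, and that of *Havcr2* lies below 0.

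LPS given overnight went with larger differences in most of these genes, read from 1 array against 1, so no difference below has a replicate check. Of the 10 genes, 5 were at least 1.5-fold higher on the LPS array, beside 3.63% of 33649 probe sets, and 1 was at least 1.5-fold lower, beside 3.95%. The median difference of the 10 was 0.75, against 0 over all genes. Values were equal on both arrays for 54.2% of the 33649 probe sets, but for 0 of the 10 genes. Equal values cannot pass 1.5-fold, so they lower the background shares and draw the background median to 0. *Cd200* had 9.05 with LPS and 6.55 in the Control (difference 2.50, 5.67-fold). *Pdcd1* had 6.68 with LPS and 4.33 in the Control (2.36, 5.12-fold), and 1.72 when 16 was added to the linear signal, since the Control value was dim. The deposited LPS values of both genes were above those of all 7 other arrays, as were those of *Cd80*, *Cd86*, *Cd274*, *Pdcd1lg2* and *Icosl*. With array medians subtracted this no longer held for *Cd86* (5.93 with LPS, 5.95 in Lkb1-deficient replicate 2), but it held for the others.

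Among the ligands, *Cd80* had 11.62 with LPS and 9.78 in the Control, a difference of 1.84 (3.59-fold). *Pdcd1lg2* had 7.42 with LPS and 5.84 in the Control, a difference of 1.58 (2.98-fold). *Cd274* had 10.97 with LPS and 9.86 in the Control, a difference of 1.11 (2.15-fold). Both PD-1 ligands thus passed 1.5-fold. *Cd86*, *Cd276* and *Icosl* did not, with 10.07, 5.80 and 10.44 on the LPS array against 9.69, 5.56 and 10.25 on the Control array.

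*Ctla4* and *Havcr2* stood apart from these. *Ctla4* had 3.46 with LPS and 3.38 in the Control, a difference of 0.08 at percentiles 34.8 and 34.0 of their arrays. *Havcr2* had 7.53 with LPS and 10.01 in the Control, and the Control signal was 5.59-fold the LPS signal. The LPS value was below that of all 7 other arrays. Markers of DCs were lower on the same array: 8 of 14 were at least 1.5-fold lower and 0 higher, beside 3.95% and 3.63% of probe sets. Their median was −1.13, and the largest differences were −3.92 for *Xcr1*, −3.54 for *Clec4a4* and −2.73 for *Itgax*, which encodes CD11c. The drop was not shared by all DC markers, with −0.10 for *Flt3*, −0.09 for *Zbtb46* and 0.33 for *Batf3*. Macrophage and monocyte markers had 8 of 13 lower and 2 higher (median −0.95), and B cell markers 6 of 11 lower and 0 higher (median −0.76). Neutrophil markers had 5 of 9 higher and 0 lower (median 0.61). These were dim, with a mean of 4.73 with LPS and 4.05 in the Control, near the median of 4.14 of both arrays. The part of cell composition in the *Havcr2* difference was not tested. *Il2ra* was 3.91 higher with LPS. *Foxp3* and *Cd3e* were equal on both arrays to the last digit, as were 54.2% of shared probe sets. *Foxp3* and *Cd3d* even shared the value 4.28 on both arrays, so equal values are not read as unchanged expression.

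Set side by side, 4 of 10 genes were higher in all 3 pairs without Lkb1 and at least 1.5-fold higher with LPS, beside 1.89% of probe sets. These were *Cd80*, *Cd274*, *Pdcd1* and *Cd200*. Equal LPS and Control values lower the 1.89% too. *Havcr2* was the gene lower in both comparisons, and *Ctla4* had 0.71 without Lkb1 and 0.08 with LPS. The difference of the 2 effects was tested with limma over all 8 arrays, in which the lone LPS and Control arrays are assumed to vary like the others. It called 0 of 10 genes (0 at an unadjusted p under 0.05, and 94 probe sets of 33649) and 0.00297% of probe sets. The estimate farthest from 0 was that of *Havcr2*, −2.14 with a 95% interval of −4.48 to 0.21, followed by 1.51 for *Cd80* (−0.83 to 3.86). With the replicate number as a block, *Cd80* and *Havcr2* passed (adjusted p = 0.0316 and 0.0120), 2 of 10 genes beside 0.981% of probe sets. That fit takes LPS and Control as a pair, which no label states, and its spread comes from the Lkb1-deficient and WT pairs alone. For *Cd200* the difference of the effects was 0.58 with an interval of −1.76 to 2.93, and for *Ctla4* −0.63 (−2.98 to 1.72), so neither size is narrowly bounded.

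**Figure D3:**
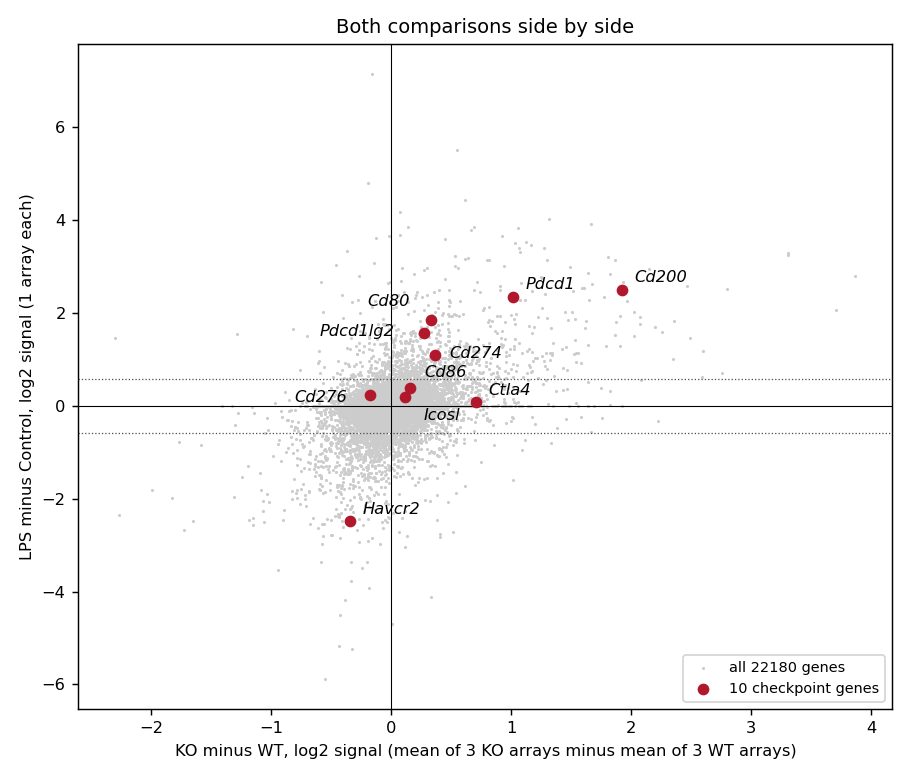
LPS minus Control log2 signal (y axis, 1 array each) against KO minus WT log2 signal (x axis, KO standing for Lkb1-deficient DCs, means of 3 arrays each) for the 10 genes (red, named) and all 22180 genes (grey), with dotted lines at 1.5-fold. *Cd200* and *Pdcd1* lie in the upper right, *Havcr2* at the lower left, and *Ctla4* close to the line of no LPS difference.

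Partners of these molecules were read from a list of other B7 ligands and receptors. All 11 were measured, and 0 passed limma between the genotypes with or without the block. At an unadjusted p under 0.05 with the block 0 were higher and 0 lower, beside 5.21% and 6.22% of all probe sets. Their median difference was 0.08. The receptors *Cd28* and *Icos*, which bind CD80 and CD86 or ICOSL, differed by −0.07 and 0.08. *Tnfrsf14*, which encodes the BTLA partner HVEM, was the 1 gene at least 1.5-fold higher with LPS, at 8.04 against 7.03 in the Control. That was 1 of 11, with 0 lower, beside 3.63% and 3.95% of probe sets. Several genes of the list, among them *Cd28*, had equal LPS and Control values and so could not pass 1.5-fold. *Rgmb*, whose product binds PD-L2, had 6.11 with LPS and 5.76 in the Control.

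A second list held the CD200 receptors and the TIM and nectin families with their partners. Of 19 measured genes, 0 passed limma in either fit, and the median difference was 0.09. At an unadjusted p under 0.05 with the block, 5 were higher and 3 lower, beside 5.21% and 6.22% of all probe sets. *Cd200r1*, the receptor of CD200 on myeloid cells, differed by −0.62, −0.57 and −0.03 in the Lkb1-deficient pairs (mean −0.41, adjusted p = 0.416 with the block). It had 3.96 with LPS, a dim value below that array's median of 4.14, and 5.51 in the Control. The receptor was lower on the array where *Cd200* was higher, read from 1 array against 1. *Lgals9*, which encodes the TIM-3 ligand galectin-9, was 0.97 higher with LPS and differed by −0.03 between genotypes. *Pvr*, a ligand of TIGIT and CD226, was 0.71 higher with LPS and differed by 1.16, 0.79 and 0.98 in the pairs (adjusted p = 0.0857 with the block).

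Genes that act on the surface level or signalling of these molecules were the third list. Of 15 measured, 0 passed in either fit, and the median was 0.06. At an unadjusted p under 0.05 with the block, 3 were higher and 2 lower, beside 5.21% and 6.22% of all probe sets. With LPS, *Irf1*, a transcription factor of the interferon response, and *Stat3* were 1.22 and 1.13 higher, and *Lrba*, whose product protects CTLA-4 from lysosomal breakdown, was 0.96 lower on the log2 scale. In all, 3 were at least 1.5-fold higher with LPS and 2 lower, beside 3.63% and 3.95% of probe sets. Between genotypes *Irf1* differed by 0.72, 0.73 and 0.51 in the pairs (mean 0.65, adjusted p = 0.145 with the block). *Marchf1*, which encodes the ubiquitin ligase that removes CD86 from the DC surface, differed by −0.39, −0.24 and −0.35 (adjusted p = 0.342 with the block).

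**Figure D4:**
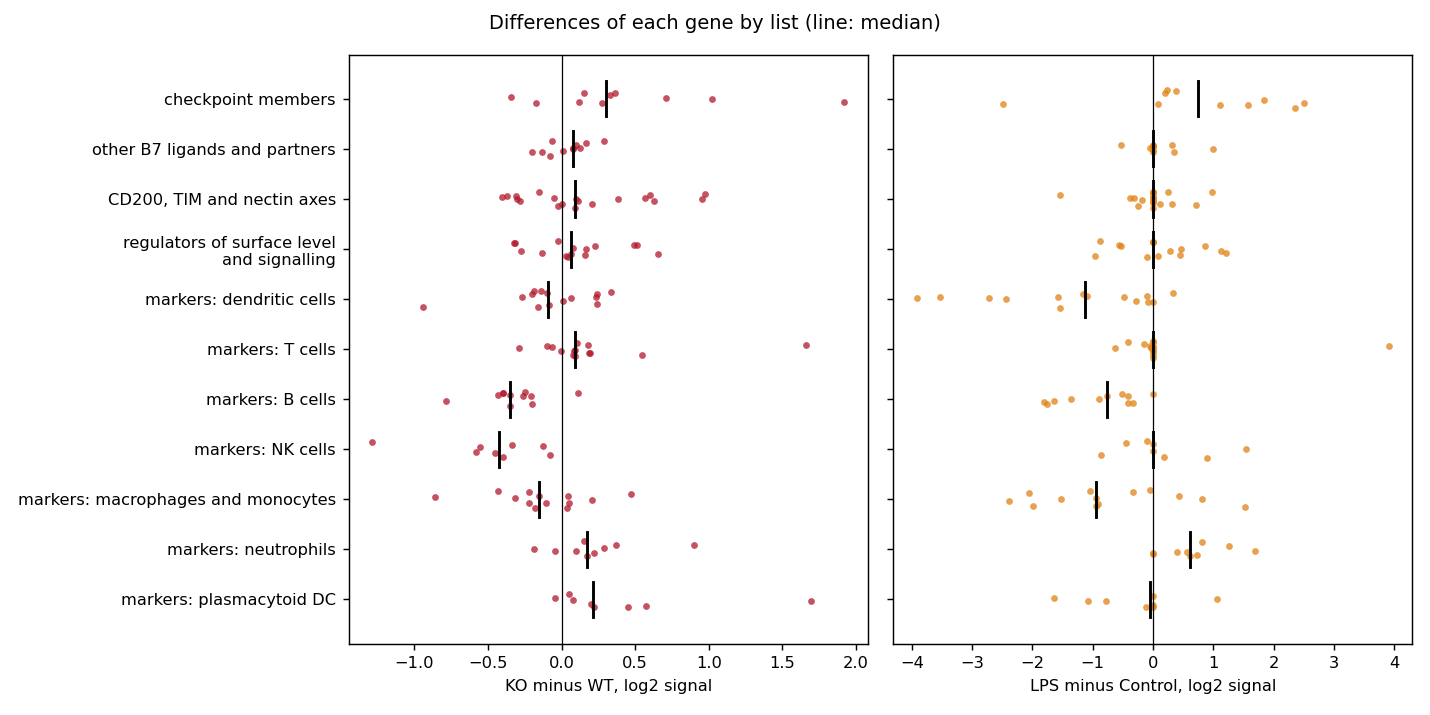
KO minus WT (left, KO standing for Lkb1-deficient DCs) and LPS minus Control (right) log2 differences of each gene in the checkpoint set, the partner lists and the cell type marker lists, with vertical ticks at list medians. The checkpoint set has medians of 0.30 and 0.75, and the DC markers a median of −1.13 with LPS.

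The genes most like 5 of these in pattern were named by Pearson's r over the 8 arrays after each array's median was subtracted, among 22179 other genes. The arrays share genotype and LPS differences, so r describes the pattern only. *Cd200* was followed most closely by *Atp11a* (r = 0.995), *Tmtc2* (0.994) and *Glipr2* (0.984), with 26 genes at an r of at least 0.95. These genes differed by 1.03, 1.48 and 1.83 without Lkb1 and by 1.45, 1.84 and 2.84 with LPS. For *Pdcd1* the nearest were *Fas* (0.978), *Pde7b* (0.969) and *Ly75* (0.966). *Fas*, the death receptor, differed by 1.25 without Lkb1 and 2.76 with LPS, and *Ly75*, which encodes the endocytic receptor DEC-205, by 1.00 and 1.97. For *Cd80* they were *Rapgef2* (0.981), *Parp12* (0.979) and *Tnip2* (0.979), for *Cd274* *Jak2* (0.985), *Tmbim6* (0.981) and *Acvr2a* (0.980), and for *Pdcd1lg2* *Galnt7* (0.958), *Arhgef10* (0.954) and *Tap2* (0.951). *Havcr2*, added after its values were seen, was followed by *Pld4*, *Rgs2* and *Otulinl* (0.994 each), with 91 genes at an r of at least 0.95.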

How the data were processed

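Total RNA of sorted splenic DCs was hybridized to 8 arrays (3 Lkb1-deficient, 3 WT, 1 LPS, 1 Control). The deposited table gives log2 signals of each probe set on each array, as the authors made them. The methods name GeneSpring, the submitters' processing notes name MAS5 without a role, and the normalization is not given in the sources used here. The number of arrays limits the precision, and 7696 of the 41345 probe sets lack values on the LPS and Control arrays.

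Symbols came from the platform annotation (23521 probe sets with 1 symbol, 1820 with several, 16004 with none). A gene was read from its probe set of highest mean. The 10 genes, the lists, the rule for named genes (all 10 genes, list genes past a test, the 3 largest LPS differences of a list among those past 1.5-fold, and the 3 nearest patterns of 5 genes) and the tests were chosen with earlier results of these data known. Not every gene of the rule is described, and some list genes beyond it are named. *Flt3*, *Zbtb46* and *Batf3* with LPS were named after their values were seen. *H2-Ab1*, *Rgmb*, *Cd28*, *Icos* as a receptor, *Cd3e* and *Marchf1* were named for their role, and *Foxp3*, *Il2ra*, *Icos* as a T cell marker, *Pvr*, *Irf1*, *Clec4a4* and *Adgre1* between genotypes after their values were seen.

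Genotypes were compared with limma 3.58.1 in R 4.3.3 without a block, and p-values were adjusted by Benjamini-Hochberg over the 41345 probe sets. The fit without a block was tested on simulated independent arrays with known changes. Those lacked the shifts between replicates of the real arrays, so that test does not cover them. Neither labels nor methods say that replicate numbers pair the mice. After removal of the genotype means, arrays of the same number correlated at 0.85, 0.80 and 0.74 and others at −0.61 to −0.13, past the 0.1 set for pairing, so the fit with the number as a block is also given. LPS was compared with Control by difference alone, past 1.5-fold. Alternatives were quantile normalization, array medians subtracted, 16 added to the linear signal, a trended prior, bright probe sets only, the mean of a gene's probe sets, the methods' t-test, and each array left out.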

Additional observations from a re-analysis of the deposited data

How the results depend on the processing

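Of 24 alternatives per gene, 18 gave an estimate of their own; the others change only the test or repeat an estimate. The difference between Lkb1-deficient and WT DCs kept its sign in these 18 for *Cd200* (1.54 to 2.40), *Pdcd1* (0.57 to 1.38) and *Ctla4* (0.41 to 1.12). The other 7 genes changed sign in 1 to 4, each with a single array left out. Leaving out 1 array moved the median of all probe sets to between −0.35 and 0.31, but 4 of the sign changes, in 3 genes (*Cd86*, *Icosl* and *Havcr2*), came with array medians subtracted. The count of checkpoint genes called was 0 without the block, 1 with the replicate block and 1 with the block and quantile normalization, and 0 for each array left out. The count of probe sets called was 4 without the block and 95 with the replicate block. It was 2 after quantile normalization, and 0 with array medians subtracted, with 16 added or by the methods' t-test. Alternatives chosen after seeing the data gave 12 with the block and 16 added, 91 with the block and quantile normalization, 0 with any pair left out under the block, and 0 with array medians subtracted and any array left out. Leaving out single arrays gave 0 to 10 (2 without Lkb1-deficient replicate 1, 0 without replicate 2, 10 without replicate 3). The cause was not tested. The test of the LPS effect against the effect of *Lkb1* deletion called 0 genes, also with each array left out, and 2 with the replicate block (0.981% of probe sets). The count of 5 genes at least 1.5-fold higher with LPS was the same after quantile normalization and with 16 added. In WT DCs *Pdcd1* and *Ctla4* stood at percentiles 34.9 to 55.4 and 43.0 to 61.9 of the probe sets with values on all 8 arrays. Dim signal there limits what a difference can show.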
